A study of Mus musculus with 6 samples.

Results

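Complex I of the respiratory chain is represented here by the 41 nuclear genes whose symbol in the deposited table consists of Nduf, one of the letters a, b, ab, c, s, v or af, and a number. These are 41 of the 27131 rows of the table, no symbol occurred on more than 1 of the matching rows, and all 41 passed the filter on low counts, among 16960 genes tested. They encode 36 structural subunits, 4 assembly factors, and Ndufa4, which carries a complex I name but is found in complex IV.

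The RNA came from the levator ani/bulbocavernosus muscle (LA/BC), an androgen-sensitive muscle of the pelvic floor, of mice kept on standard chow and killed at 14 weeks. The groups were 3 wild-type mice (WT) and 3 mice labelled 113Q, a knock-in model of spinal and bulbar muscular atrophy (SBMA), which is caused by a lengthened glutamine tract in the androgen receptor. The labels give no treatment for either group, and strain, sex and litter are not given in the labels. Each library is 1 mouse, and the comparison asks how RNA levels differ between 113Q and WT muscle.

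Complex I takes electrons from NADH, passes them along a flavin and a chain of iron-sulphur clusters to ubiquinone, and pumps protons across the inner mitochondrial membrane. The complex is L-shaped: the matrix arm carries the flavin, the clusters and the nuclear core subunits, and the membrane arm carries the proton pumps, whose core subunits are encoded by mitochondrial DNA. Accessory subunits surround the core, and assembly factors help to build the modules without staying in the finished enzyme. Skeletal muscle fibres contain many mitochondria, and inherited complex I defects often affect muscle and brain.

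The libraries held 43581087 to 73873481 counts, and every member had between 368 and 56965 counts in each library. Levels are given as CPM, counts scaled to a common library size with TMM factors, which assume that most genes do not differ. These factors were 0.768 to 0.794 in WT and 1.26 to 1.32 in 113Q, and the 20 most abundant genes took 30.8% to 32.7% of the counts in WT and 14.2% to 15.7% in 113Q. Myofibre markers showed skeletal muscle RNA in all libraries, though they cannot tell which muscle it came from. The 11 markers summed to 190900, 211900 and 196700 CPM in the WT mice against 49560, 57970 and 58820 in the 113Q mice. Slow fibre markers were low in all libraries. Fewer cells of a type and less RNA per cell cannot be told apart in whole muscle.

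Of the 41 members, 38 fell in 113Q, 0 rose and 3 did not pass the test (edgeR quasi-likelihood test, adjusted p below 0.05; DESeq2 also gave 38 and 0, and limma voom 38 and 1). No member rose at an adjusted p below 0.05 in edgeR, and 1, Ndufaf3, was higher at an unadjusted p below 0.05. Of all genes tested, 18.1% were called lower and 16.5% higher, 34.6% together. The median log2 fold change was -0.76 for the members and 0.01 for all genes tested. The same 38 members were lower in every 113Q mouse than in any WT mouse, an arrangement found for 24.8% of all genes tested, and 0 members were higher in every 113Q mouse, as 25.1% of all genes were. Between -1 and -0.5 on the log2 scale lay 30 members, 5 were at -1 or below, and 6 were above -0.5. The 41 members together made up 14036, 12146 and 12206 CPM in the WT mice against 6863, 7175 and 7611 in the 113Q mice.

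**Figure D1:**
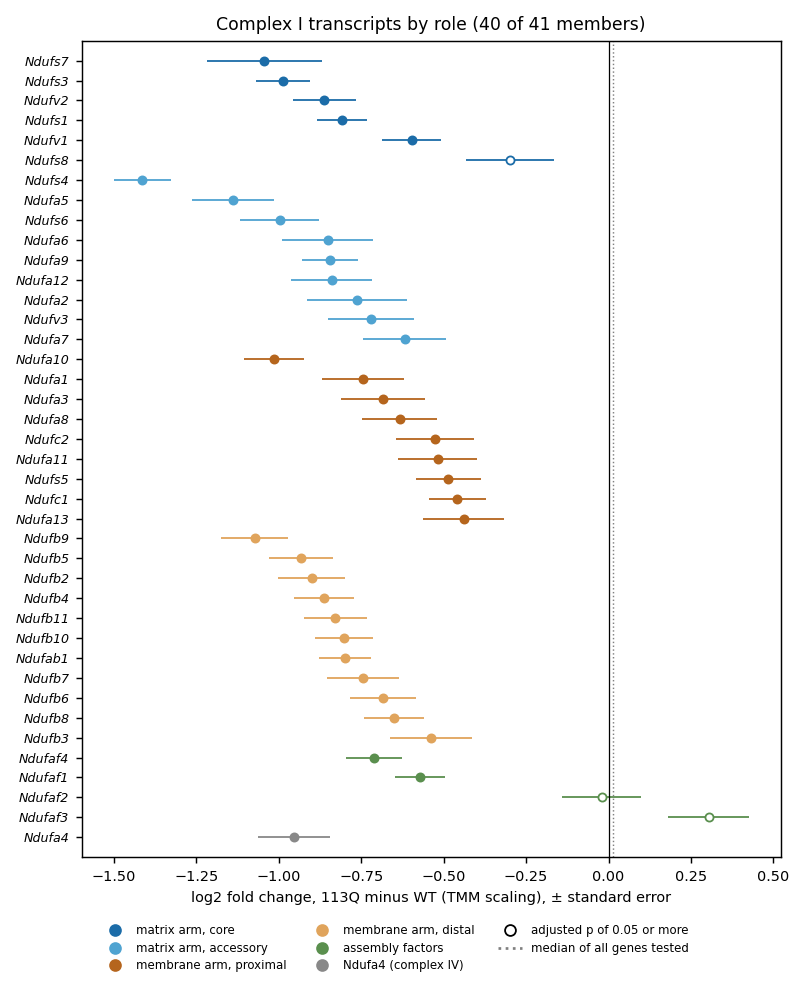
Each point is the log2 fold change of 1 of 40 members (113Q minus WT, TMM scaling; x axis) with its standard error, grouped by role; open points had an adjusted p of 0.05 or more and the dotted line is the median of all genes tested. Ndufs4 is farthest to the left at -1.41, and the 3 open points are Ndufs8, Ndufaf2 and Ndufaf3.

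This fall is relative to the other genes. As a share of all counts in the library, without any scaling factor, the members made up 1.09%, 0.933% and 0.970% in WT and 0.905%, 0.910% and 0.961% in 113Q. WT mouse 3 and 113Q mouse 3 differed little in this share, and only WT mouse 1 stood clearly above the rest. When libraries were scaled by their totals alone, all genes tested had a median of 0.73 on the log2 scale and the members one of -0.04. In that fit 7 members fell, 4 rose and 30 did not pass, where 4.19% of all genes fell and 64.9% rose. Those that fell under both scalings included Ndufs4, Ndufa5, Ndufb9, Ndufa10, Ndufs6 and Ndufs3. The 4 that rose with totals alone were Ndufaf3, Ndufaf2, Ndufs8 and Ndufc1; of these, Ndufc1 fell with TMM factors and the other members named did not pass there. A change of scaling moves all genes by about the same amount, so the distance between the members and the median gene could hardly differ. The sign of 16 members depended on the scaling. An absolute change in RNA per muscle cannot be read from these values.

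**Figure D2:**
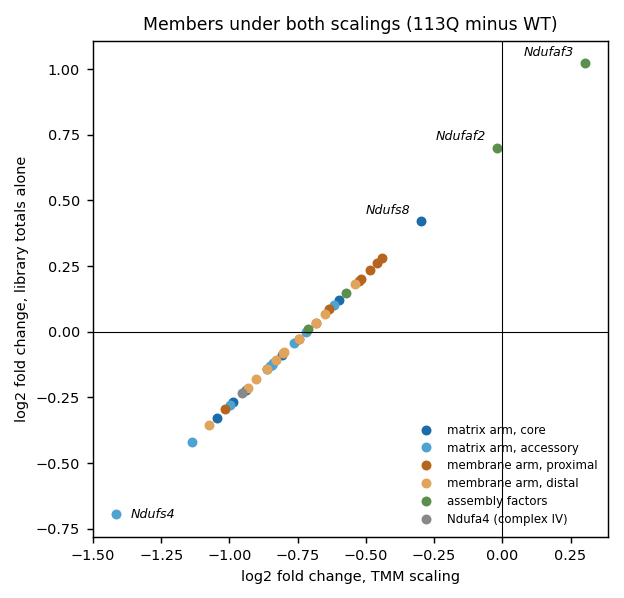
Each point is 1 member, with its log2 fold change under TMM scaling on the x axis and under library totals alone on the y axis, coloured by role. The points lie on a line shifted upwards by about 0.72, so that with totals alone 24 members are below 0 and 17 above.

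The 7 nuclear core subunits, which hold the flavin and the iron-sulphur clusters, had a median log2 fold change of -0.86, and 6 of them fell. Ndufv1, which binds NADH and the flavin, had 632, 619 and 592 CPM in the WT mice against 373, 407 and 437 in the 113Q mice. It fell by 0.60 on the log2 scale (standard error 0.09, edgeR adjusted p = 0.00139), to 0.661 of its WT level. Its partner Ndufv2, an iron-sulphur protein, had 649, 546 and 558 CPM in the WT mice against 331, 304 and 330 in the 113Q mice (log2 fold change -0.86, standard error 0.10, edgeR adjusted p = 0.00034). Ndufs1, the largest core subunit and the holder of several clusters, had 833, 835 and 870 CPM in the WT mice against 487, 491 and 471 in the 113Q mice (log2 fold change -0.81, standard error 0.08, edgeR adjusted p = 0.000161). For each of these the groups were well apart, and Ndufs1 varied by only 20.7 CPM (SD, n = 3) among the WT mice.

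Ndufs7 holds the last cluster of the chain, next to the pocket in which ubiquinone is reduced. It had 523, 403 and 368 CPM in the WT mice against 169, 213 and 245 in the 113Q mice (log2 fold change -1.04 with a standard error of 0.17, edgeR adjusted p = 0.00315). Ndufs7 had the largest standard error of the core subunits, yet its groups did not overlap. Ndufs3, a scaffold of the early matrix arm, had 533, 472 and 479 CPM in the WT mice against 244, 249 and 255 in the 113Q mice (log2 fold change -0.99, standard error 0.08, edgeR adjusted p = 9.26e-05). The sequence of Ndufs3 overlaps copies elsewhere in the genome: 39.7% of the 50-base stretches of its longest mRNA occur in transcripts of other genes, most often Gm12251. Exons of 18 members overlap those of another annotated gene, among them Ndufs1, which shares 489 bases with the opposite-strand Ino80dos. Sharing of 50-base stretches passed 20% in 7 members; the others are Ndufb4, Ndufb6, Ndufs5, Ndufa13, Ndufa12 and Ndufb9, and 20 members shared none. Ndufs8, which carries a pair of clusters next to Ndufs7, was the exception. It had 159, 123 and 113 CPM in the WT mice against 97.7, 107 and 116 in the 113Q mice, the groups overlapped, and its difference of -0.30 did not pass (standard error 0.13, edgeR adjusted p = 0.122). WT mouse 1 was the highest of the libraries for Ndufs8, and the other WT mice were close to the 113Q mice.

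**Figure D3:**
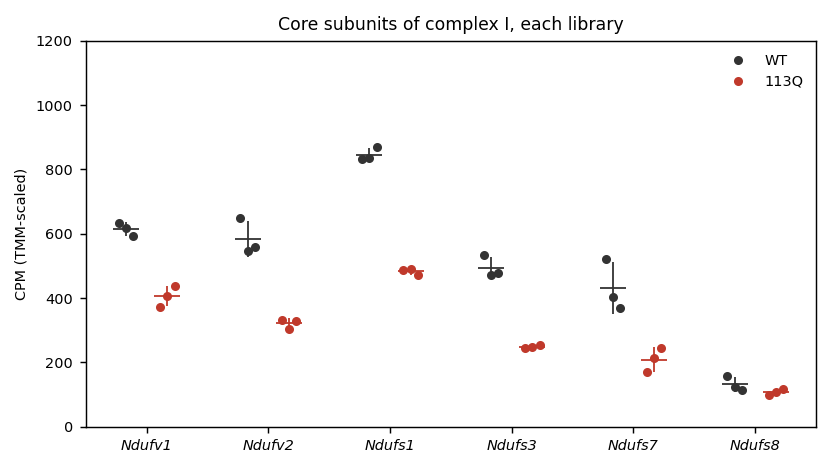
TMM-scaled CPM (y axis, from 0) of 6 nuclear core subunits in each of the 3 WT and 3 113Q libraries; horizontal marks and vertical bars are the mean and SD. The groups overlap for Ndufs8 and are apart for the other genes drawn.

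All 9 accessory subunits of the matrix arm fell, with a median of -0.85 and a range from -1.41 to -0.62. Ndufs4, which helps to hold the NADH-oxidising module on the arm and whose loss in mice causes a Leigh-like brain disease, fell most of all 41 members. It had 491, 427 and 442 CPM in the WT mice against 175, 164 and 171 in the 113Q mice. The WT mean was 453 ± 33.5 CPM and the 113Q mean 170.0 ± 5.78 CPM (SD, n = 3 each), 2.67 times lower (log2 fold change -1.41, standard error 0.09, edgeR adjusted p = 2.34e-05). Ndufs4 lies on chromosome 13 from 114287795 to 114388258 on the minus strand (GRCm38), and no exon of another annotated gene overlaps its exons. Ndufa5, an accessory subunit of the ubiquinone-reducing module, had 256, 189 and 197 CPM in the WT mice against 95.2, 93.2 and 103 in the 113Q mice (log2 fold change -1.14, standard error 0.12, edgeR adjusted p = 0.000306). Ndufa9, at the junction of the arms, had 549, 495 and 509 CPM in the WT mice against 271, 291 and 303 in the 113Q mice (log2 fold change -0.85, standard error 0.09, edgeR adjusted p = 0.000217). The smallest fall of the 9 was that of Ndufa7 (-0.62, standard error 0.13, edgeR adjusted p = 0.0064), with 170.1, 125 and 130.1 CPM in the WT mice against 84.8, 94.2 and 98.0 in the 113Q mice. Between these lay Ndufs6 (-0.997), which binds zinc, Ndufa6 (-0.85), Ndufa12 (-0.84), Ndufa2 (-0.76) and Ndufv3 (-0.72).

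The 9 accessory subunits of the proximal membrane arm, the part that joins the matrix arm, all fell as well, with a median of -0.53. Ndufa10, a subunit on the matrix face of this part, fell most: it had 434, 454 and 424 CPM in the WT mice against 194, 224 and 231 in the 113Q mice (log2 fold change -1.01, standard error 0.09, edgeR adjusted p = 0.000127). Ndufa1, a small membrane subunit, had 191, 152 and 148 CPM in the WT mice against 85.7, 99.7 and 107 in the 113Q mice (log2 fold change -0.75, standard error 0.13, edgeR adjusted p = 0.00258). Ndufa8, which faces the intermembrane space, had 215, 197 and 173 CPM in the WT mice against 113, 123 and 142 in the 113Q mice (log2 fold change -0.63, standard error 0.11, edgeR adjusted p = 0.00363). Ndufa13, also known as GRIM19, had 434, 338 and 339 CPM in the WT mice against 245, 275 and 298 in the 113Q mice. Its fall of -0.44 was the smallest of the structural subunits that passed (standard error 0.12, edgeR adjusted p = 0.0252), and it no longer passed when the fit left out WT mouse 1 (0.0606, edgeR adjusted p), 113Q mouse 1 (0.0862) or 113Q mouse 2 (0.0727). Its exons share 375 bases with Tssk6 on the other strand, and whether strand was used in the counting is not given in the sources used here. Ndufa3, Ndufc2, Ndufa11, Ndufs5 and Ndufc1 lay between -0.68 and -0.46.

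The 11 accessory subunits of the distal membrane arm, which surround the outer proton pumps, all fell, with a median of -0.80 and a range from -1.07 to -0.54. Ndufb9 had 731, 601 and 628 CPM in the WT mice against 294, 308 and 329 in the 113Q mice (log2 fold change -1.07, standard error 0.10, edgeR adjusted p = 0.000153). Ndufab1, the mitochondrial acyl carrier protein, which also serves fatty acid and iron-sulphur cluster synthesis outside the complex, had 233, 216 and 204 CPM in the WT mice against 127, 123 and 125 in the 113Q mice (log2 fold change -0.80, standard error 0.08, edgeR adjusted p = 0.000203). Ndufb5 had 402, 348 and 331 CPM in the WT mice against 177, 196 and 194 in the 113Q mice (log2 fold change -0.93, standard error 0.10, edgeR adjusted p = 0.00026). Its exons share 616 bases with Mrpl47 on the other strand, and those of Ndufab1 share 269 with Gm44986, so counts of these genes are uncertain in the same way as those of Ndufa13. The smallest fall was that of Ndufb3 (-0.54, standard error 0.12, edgeR adjusted p = 0.0106), with 135, 96.4 and 104 CPM in the WT mice against 75.0, 78.0 and 78.1 in the 113Q mice. The others were Ndufb2, Ndufb4, Ndufb11, Ndufb10, Ndufb7, Ndufb6 and Ndufb8, from -0.90 to -0.65. Ndufb4 shares 37.0% of its 50-base stretches with other genes, mostly with its copy Ndufb4c, and Ndufb6 shares 34.1% with Smim27 on the other strand, so counts of these genes may be divided with their neighbours or copies.

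Of the 4 assembly factors in the rule, 2 fell and 2 did not pass, with a median of -0.30. Ndufaf1, which works in the membrane arm assembly complex together with Ecsit and Acad9, had 43.1, 46.8 and 46.0 CPM in the WT mice against 30.7, 31.1 and 29.5 in the 113Q mice (log2 fold change -0.57, standard error 0.07, edgeR adjusted p = 0.000742). Ndufaf4, which acts with Ndufaf3 on the ubiquinone-reducing module, had 44.7, 41.2 and 38.3 CPM in the WT mice against 25.9, 25.0 and 25.0 in the 113Q mice (log2 fold change -0.71, standard error 0.08, edgeR adjusted p = 0.00049). Both fell and their groups were apart.

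Ndufaf3 had 19.6, 15.8 and 15.6 CPM in the WT mice against 19.1, 21.3 and 22.5 in the 113Q mice, and WT mouse 1 lay inside the 113Q range. Its log2 fold change of 0.30 did not pass (standard error 0.12, edgeR adjusted p = 0.0889), but it was called higher with limma voom (adjusted p = 0.0229) and without WT mouse 1 (edgeR adjusted p = 0.0308). Ndufaf3 lies on chromosome 9 from 108565537 to 108567434, minus strand, and shares 48 exonic bases with Impdh2 on the other strand. Ndufaf2, a relative of Ndufa12 that sits in its place on a late assembly intermediate, had 10.9, 11.0 and 11.3 CPM in the WT mice against 12.1, 9.76 and 10.8 in the 113Q mice. Its groups overlapped (log2 fold change -0.02, standard error 0.12, edgeR adjusted p = 0.911). An opposite-strand non-coding gene, B230220B15Rik, shares 1955 bases with annotated exons of Ndufaf2, but none of the 50-base stretches of the longest Ndufaf2 mRNA occurs in another gene.

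The remaining Ndufaf factors stand in the table under older symbols and so outside the rule; they were looked up through RefSeq synonyms after the values of the members were seen. Ndufaf5, which modifies Ndufs7, had 52.6, 42.3 and 45.9 CPM in the WT mice against 30.6, 30.4 and 33.7 in the 113Q mice and fell by 0.57 (edgeR adjusted p = 0.00303). Ndufaf6 fell by 0.73 (edgeR adjusted p = 0.00119). Ndufaf7, a methyltransferase, and Ndufaf8, the partner of Ndufaf5, had differences of -0.13 and 0.38 that did not pass (edgeR adjusted p = 0.229 and 0.144). Of the 11 complex I assembly factors with other names that were tested, 8 fell, 1 rose and 2 did not pass, with a median of -0.55. Dmac1, found through the same synonyms, is not among these 11. Its difference of -0.20 did not pass (edgeR adjusted p = 0.135). Ecsit had 55.8, 57.1 and 53.9 CPM in the WT mice against 27.8, 30.4 and 29.5 in the 113Q mice (log2 fold change -0.93, edgeR adjusted p = 8.1e-05), and Tmem126a had a log2 fold change of -1.02 (edgeR adjusted p = 0.000134). Lyrm2 was the gene that rose, from 21.3, 21.1 and 20.1 CPM in the WT mice to 31.2, 30.6 and 28.9 in the 113Q mice (log2 fold change 0.54, edgeR adjusted p = 0.00165).

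Ndufa4, the complex IV subunit that keeps a complex I name, had 1046, 823 and 873 CPM in the WT mice against 471, 446 and 499 in the 113Q mice. It fell by 0.95 on the log2 scale (standard error 0.11, edgeR adjusted p = 0.000409), within the range of the complex I subunits. Its relative Ndufa4l2, which lies outside the rule and responds to low oxygen in other settings, had 6.54, 8.74 and 6.64 CPM in the WT mice against 6.03, 5.91 and 6.33 in the 113Q mice and did not pass (log2 fold change -0.26, edgeR adjusted p = 0.24). No row matched the symbols of the mitochondrially encoded complex I subunits, so the membrane arm core was not analysed here.

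Ratios between members do not depend on how libraries are scaled. Each member was therefore set against the geometric mean of all 41 in the same library, on the log2 scale. These ratios are descriptions, since the members share the mean. Ndufs4 was at 1.05, 1.09 and 1.14 in WT and 0.52, 0.36 and 0.34 in 113Q, the largest loss of share at -0.68. Ndufa5 lost 0.40, from 0.11, -0.09 and -0.03 to -0.36, -0.45 and -0.40. Ndufb9 lost 0.34, Ndufs7 0.32 and Ndufa10 0.29 by the same measure.

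Ndufs8 gained 0.44, from -0.58, -0.70 and -0.83 in WT to -0.32, -0.25 and -0.22 in 113Q, and the 113Q mice were all above the WT mice. Ndufaf3 gained 1.035, from -3.595, -3.664 and -3.687 to -2.675, -2.583 and -2.585, and Ndufaf2 gained 0.70. Of all 41 members, 9 gained share without overlap, 13 lost share without overlap, and 19 overlapped. In CPM, the groups were apart for 24.8% (113Q below) and 25.1% (113Q above) of all genes tested. The ratio was not computed for all genes. Gains and losses balance by construction, since each ratio is set against the members' own mean. These counts therefore do not show an unusual shift among the members. Of the 9 accessory subunits of the proximal membrane arm, 5 gained without overlap, Ndufa13 by 0.29, Ndufc1 by 0.27, Ndufs5 by 0.25 and Ndufc2 and Ndufa11 by 0.21 each. Of the remaining subunits of that group, Ndufa10 lost as given above, and Ndufa1 (-0.014), Ndufa3 (0.046) and Ndufa8 (0.093) overlapped. Among the core subunits, Ndufs7 lost as given above, and Ndufs3 (-0.26) and Ndufv2 (-0.13) also lost without overlap. Ndufs1 (-0.08) and Ndufv1 (0.13) kept overlapping ratios.

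**Figure D4:**
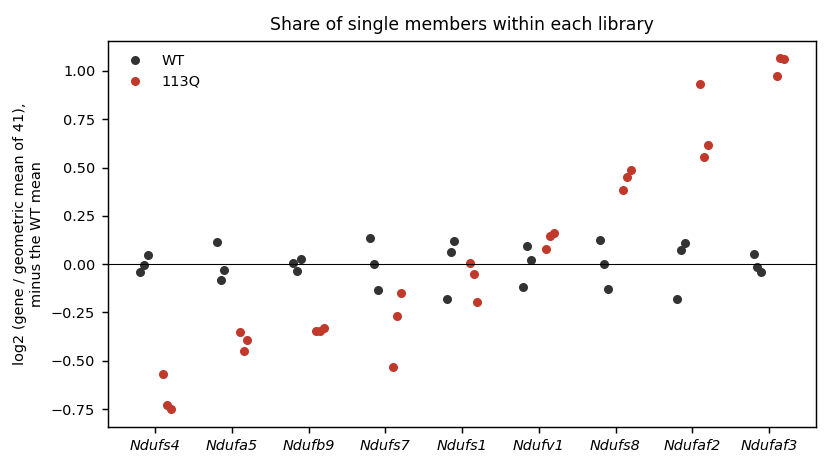
For 9 members, the log2 ratio to the geometric mean of the 41 members in the same library, minus the mean of the WT libraries (y axis), with 1 point per library. Ndufs4, Ndufa5 and Ndufb9 lie below 0 in every 113Q library, and Ndufs8, Ndufaf2 and Ndufaf3 lie above it.

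Levels of different genes were compared per kilobase of reference mRNA in WT. Ndufa4 was highest at 1498 ± 192 CPM per kilobase, then Ndufb9 at 928 ± 97.4 (SD, n = 3). Ndufs7, Ndufb10 and Ndufa6 were among the next, at 569 ± 107, 545 ± 21.8 and 535 ± 97.4, and their libraries overlapped. By reference mRNA length the assembly factors were lowest: Ndufaf1 was at 31.2 ± 1.36, Ndufaf2 at 16.3 ± 0.318, Ndufaf3 at 11.45 ± 1.52 and Ndufaf4 at 11.41 ± 0.878, and the last pair did not differ beyond their spread. In 113Q, Ndufa4 (773.8 ± 44.1) and Ndufb9 (440.7 ± 25.4) were still the highest, while Ndufs4 went from 267 ± 19.7 to 100.1 ± 3.40 CPM per kilobase. Per kilobase of all annotated exons, Ndufa4 (662) and Ndufb9 (633) were again highest in WT, but closer to each other. On that length the lowest were Ndufaf2 (3.71), Ndufaf3 (9.38) and Ndufaf4 (10.6), and Ndufb2 (18.6) lay below Ndufaf1 (30.2), so the order at both ends rests in part on the length used.

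Across the 41 members, the log2 fold change was lower where the WT level per kilobase was higher (Pearson r = -0.59, Spearman rho = -0.50; -0.33 and -0.39 over the 37 members that are not Ndufaf factors). It was nearly unrelated to mRNA length (r = -0.07, rho = -0.11). These are correlations across genes from the same 6 libraries, and the WT level enters both axes of the first.

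WT mouse 1 had the highest level of the WT mice for 36 of the 41 members. Its excess over the mean of the other WT mice was larger for shorter mRNAs (r = -0.55, rho = -0.58 across the 41 genes): it was 0.53 on the log2 scale for Ndufa2 and -0.03 for Ndufs1. This library was also the smallest, with 43581087 counts. Without it, 37 members fell, 1 rose and the median was -0.66; Ndufa13 lost its call, Ndufaf3 gained one, and the calls of the other 39 members did not differ from those with all mice.

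The promoters of the members were searched for motifs of factors known to act on respiratory chain genes, in windows from 250 bases before to 50 after the start site (RefSeq, GRCm38.p6; 37 members matched; Ndufa2, Ndufb9 and Ndufs1 are not among them). The 30-base stretches are shown because they hold the longer motifs; capitals mark the motif, and each is written on the strand of the gene. The YY1 motif AAGATGGCG occurred on either strand in 5 of 37 members (13.5%) and in 1.64% of all 27025 genes with a window; all 5 read it in the gene's own direction, 23 to 36 bases after the start site.
Ndufs4, chr13:114388045-114388074, minus strand: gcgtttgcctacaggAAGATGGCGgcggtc
Ndufs6, chr13:73328433-73328462, minus strand: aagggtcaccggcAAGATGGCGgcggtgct
Ndufs7, chr10:80249462-80249491, plus strand: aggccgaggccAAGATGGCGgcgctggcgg
Ndufa9, chr6:126849097-126849126, minus strand: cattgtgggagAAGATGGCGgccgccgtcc
Ndufc1, chr3:51408915-51408944, minus strand: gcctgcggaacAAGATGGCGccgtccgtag

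The NRF1 motif CGCATGCG, which reads the same on both strands, occurred in 3 members (8.11%, against 2.07% of all genes), before the start site in each.
Ndufa8, chr2:36049329-36049358, minus strand: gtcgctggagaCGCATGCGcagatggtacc
Ndufa11, chr17:56717692-56717721, plus strand: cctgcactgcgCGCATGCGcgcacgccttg
Ndufaf4, chr4:24897960-24897989, plus strand: ccagatgtctgCGCATGCGcctgtgcggaa

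The GABPA motif CCGGAAGT occurred in 1 member, Ndufs3, in reverse (2.70%, against 4.31% of all genes), and the ERR alpha motif TCAAGGTCA in 0 members (0.466% of all genes). With shorter motifs the shares were 18.9% against 7.28% for AAGATGG, 10.8% against 8.93% for GCATGC, which lies within the longer NRF1 motif, and 13.5% against 9.93% for CCGGAAG.
The 5 members with the longer YY1 motif had log2 fold changes from -1.41 (Ndufs4) to -0.46 (Ndufc1), and the 3 with the longer NRF1 motif from -0.71 (Ndufaf4) to -0.52 (Ndufa11). A match is a description of these letters and not a binding site. The longer YY1 motif contains the letters ATG, and all 5 of its matches lie after the start site of the transcript. Whether translation starts at this ATG was not examined. The windows of all genes were not matched to those of the members in this or in base content. Of the factors, Yy1 had 31.5, 32.6 and 27.3 CPM in the WT mice against 22.1, 25.0 and 23.7 in the 113Q mice (log2 fold change -0.37, edgeR adjusted p = 0.0214). Nrf1 had a difference of -0.14 that did not pass (edgeR adjusted p = 0.295), and Gabpa, Gabpb1 and Esrra did not pass either.

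The other respiratory complexes had similar values: all 4 complex II subunits fell (median -0.72), all 9 of complex III (-0.84), and 10 of 11 of complex IV (-0.76). In the complex V list 15 of 16 genes fell (median -0.77), and Atpif1, an inhibitor of the enzyme, rose by 0.58. The smallest p-values were those of Sdha (-0.73) and Sdhd (-0.80) in complex II, Uqcrc1 (-1.21) and Uqcrc2 (-0.95) in complex III, Cox4i1 (-0.91) and Cox7a1 (-0.84) in complex IV, and Atp5l (-1.56) and Atp5o (-1.03) in complex V. No difference between these lists and complex I was tested. Of 13 genes of iron-sulphur cluster assembly, which supply the cofactors of the matrix arm, 6 fell, 0 rose and 7 did not pass (median -0.28); Isca1 had 438, 458 and 422 CPM in the WT mice against 203, 209.5 and 208 in the 113Q mice (log2 fold change -1.09, edgeR adjusted p = 4.17e-05), and Hspa9 had a log2 fold change of -0.89.

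**Figure D5:**
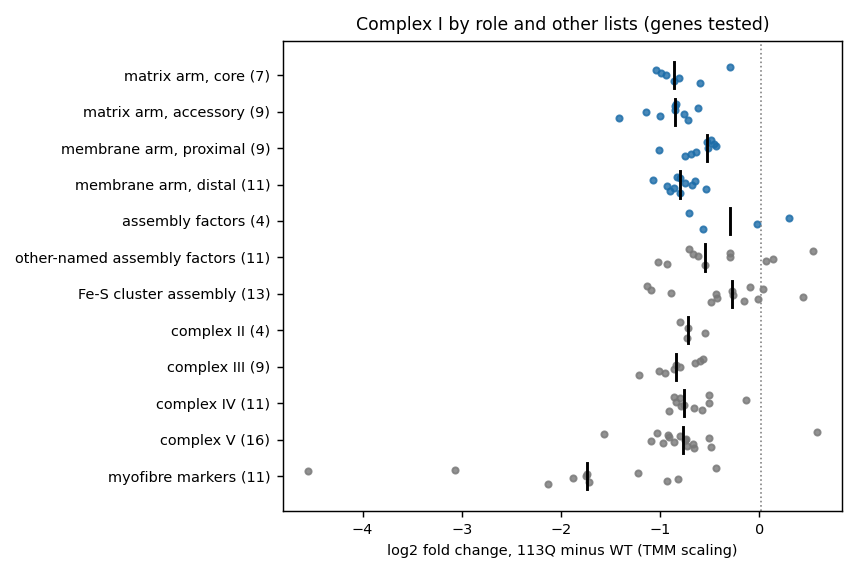
Log2 fold changes (113Q minus WT, TMM scaling; x axis) of the complex I roles (blue) and of other lists (grey), with 1 point per gene tested and a black bar at each median; the dotted line is the median of all genes. The complex I medians lie from -0.86 (matrix arm core) to -0.30 (assembly factors), and myofibre markers have a median of -1.74.

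Markers of cell types moved with the groups as follows. All 11 myofibre markers fell (median -1.74), among them Mylpf, the fast regulatory light chain (-1.87), and Des, the muscle intermediate filament protein desmin (-0.43), and all 6 endothelial markers fell (median -0.73; summed 416, 440.3 and 340.3 CPM in the WT mice against 237, 239 and 242 in the 113Q mice). Slow fibre markers summed to 2.16, 3.87 and 4.12 CPM in the WT mice against 7.39, 7.16 and 4.68 in the 113Q mice; of 3 tested, Tnnt1, slow troponin T, rose (log2 fold change 1.53, edgeR adjusted p = 0.00947). Of 5 smooth muscle markers 1 rose, and they summed to 353, 581 and 763 CPM in the WT mice against 2591, 1701 and 1222 in the 113Q mice. The epithelial markers summed to 1.30, 28.6 and 1.44 CPM in the WT mice against 0.849, 43.65 and 61.9 in the 113Q mice, and Epcam was at 0 in WT mouse 1 and 113Q mouse 1. None of 5 fibroblast, 4 macrophage or 4 epithelial markers passed, of 5 Schwann cell markers 1 rose, and of 4 white fat markers 1 fell. The brown fat gene Ucp1 was too low to be tested, and of 3 other brown fat markers 1 rose and 1 fell. The part of cell composition in the fall of the complex I transcripts was not tested. In the libraries with Epcam below 1 CPM, which are 2 WT mice and 1 113Q mouse, the members' median was -0.91. In the other libraries, 1 WT and 2 113Q mice, it was -0.66. Each of these subsets has 1 mouse in a group, so the spread of that group is not known. WT mouse 1 is in the first subset and not in the second. Leaving out WT mouse 1 alone also gave a median of -0.66, so Epcam level and this mouse cannot be told apart.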

How the data were processed

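The labels name separate mice, and the tests weigh the group difference against the spread between mice of a group. The authors deposited 1 table of estimated counts per gene, unscaled, with 1 column per mouse; the build was mm10 and the tools were Cuffdiff 2.1.1, Cufflinks, TopHat2 2.0.9, Bowtie2 2.1.0, cutadapt and FastQC 0.10.0, per the submitters' processing notes. For the annotation, strand setting and read filters, the sources used here give no entry. Per the labels' protocols, Trizol-extracted RNA went into TruSeq mRNA libraries.

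Estimated counts (5.38% to 5.96% fractional) were rounded, filtered (filterByExpr, minimum count 10), scaled with TMM and tested in edgeR 4.0.16 (robust quasi-likelihood F test, two-sided; R 4.3.3), adjusted by Benjamini-Hochberg over 16960 genes with a threshold of 0.05. The standard error was taken as the absolute log2 fold change over the root of F. The common biological coefficient of variation was 24.2%. Tests were checked on simulated data in which few genes changed. That check does not bear on the choice of scaling. DESeq2 1.42.0 and limma 3.58.1 were alternatives. Coordinates, exon overlaps and mRNA lengths (the median of the consensus coding transcripts with the best support) are from GENCODE M21, on the assembly of mm10.

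Members and lists were chosen with earlier results of these data known. One member is counted in all totals but not reported by itself here. Described in full were the other core subunits, in other roles the 3 smallest and the 1 largest p, members that did not fall, Ndufa4, and up to 2 genes of each comparison list; other genes, the mRNA length definition, the older symbols, the Epcam subsets and the genes of the within-library plot were chosen after values were seen. Alternatives covered scaling, filters, rounding, thresholds, tools, a replicate block, an Epcam term and leaving out each mouse.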

Additional observations from a re-analysis of the deposited data

How the results depend on the processing

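The count of 38 lower members was 34 to 38 in all settings tried except the scalings by totals: 26 with library totals without the 20 most abundant genes and 7 with library totals alone. The count of higher members, 0 as reported, was 2 and 4 there, and 1 with limma voom and in the libraries with Epcam of at least 1 CPM. The median of -0.76 was -0.361 and -0.043 with these totals and -0.91 in the libraries with Epcam below 1 CPM, where 113Q is 1 mouse; WT is 1 mouse in the other subset, the lone mouse is assumed to vary like the others, and both Epcam subsets were chosen after seeing the data. Leaving out each mouse gave 37 to 38 lower members, 0 to 1 higher and medians from -0.81 to -0.66. Of all genes 5869 were called, against 11725 with library totals alone, 3793 in a test against a fold of 1.2, 3424 at an adjusted p below 0.01 and 3127 in the libraries with Epcam below 1 CPM; leaving out a mouse gave 4325 to 5402. With totals alone the sign reversed for Ndufs8 (0.42), Ndufv1 (0.12), Ndufa7 (0.10), Ndufa13 (0.28), Ndufc1 (0.26), Ndufs5 (0.23), Ndufa11 (0.20), Ndufc2 (0.19), Ndufa8 (0.085), Ndufa3 (0.033), Ndufb3 (0.18), Ndufb8 (0.069), Ndufb6 (0.035), Ndufaf2 (0.70), Ndufaf1 (0.15) and Ndufaf4 (0.01), and with totals without the 20 most abundant genes for Ndufs8 (0.10) and Ndufaf2 (0.38); these scalings move all genes together. Ndufaf2, near 0, also reversed with upper-quartile factors (0.021), with the Epcam term (0.018), in the libraries with Epcam below 1 CPM (0.13) and without 113Q mouse 2 (0.058; leaving out each mouse gave -0.1 to 0.058). The mouse numbers were not treated as pairs. Deviations of same-numbered mice correlated at 0.198, 0.236 and -0.274, and those of other pairings at -0.436 to 0.379. With 3 mice per group these values cannot decide whether the mice were paired. With a replicate block 37 members were lower, 0 higher, the median was -0.75 and 4737 genes were called; the call lost was that of Ndufa13 (adjusted p = 0.0711). The lowest count of a member in any library was 368.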
